A study of Mus musculus with 15 samples.

Results

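Cholesterol is made in the liver by a chain of enzymes whose genes are switched on together by the transcription factor SREBP2, and 32 genes of that chain, of the machinery that controls SREBP2 and of sterol transport were followed here in mouse livers exposed to a plasticizer. The set was split by role into 8 genes of the mevalonate steps, which build isoprenoid units up to farnesyl and geranylgeranyl diphosphate, 12 genes of the late sterol steps, which turn farnesyl diphosphate into cholesterol, 6 regulators and 6 genes of transport and turnover. A gene counted as measured where a probe set of the array carried its symbol and no other, and the probe set with the highest mean log2 value over all arrays was kept. By that rule 30 of the 32 genes were measured, of 19938 genes in all: 8 mevalonate genes, 12 late sterol genes, 5 regulators and 5 transport genes. Mbtps2 and Soat2 had no probe set of their own and were not analysed here.

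The series measured liver mRNA on 15 arrays, 1 per animal, in male mice aged 7.5 months ± 2.5 weeks that received 4 daily doses by gavage. Di(2-ethylhexyl) phthalate (DEHP), a plasticizer and peroxisome proliferator, was given at 1150 mg per kg body weight per day in corn oil, and control animals received the corn oil vehicle. The groups were 3 PPARα-null mice on DEHP (animals KO-121 to KO-123), 4 PPARα-null mice on corn oil (KO-115 to KO-118), 4 wild-type mice on DEHP (WT-56 to WT-59) and 4 wild-type mice on corn oil (WT-52 to WT-55). PPARα is the nuclear receptor through which peroxisome proliferators act on liver lipid metabolism, and the null mice lack it in the whole body. The null mice were 129S4/SvJae-Pparatm1Gonz/J and the wild-type mice 129S1/SvlmJ in 1 inbred colony, so a difference between genotypes cannot be told apart from one between the substrains. The comparisons ask which genes DEHP changes in the presence and in the absence of PPARα. In this whole-liver RNA, fewer cells of a type and less RNA per cell cannot be told apart.

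SREBP2 is made as a precursor in the endoplasmic reticulum, where Scap carries it and the Insig proteins hold it back when sterols are plentiful. When sterols run low, Scap takes SREBP2 to the Golgi, proteases release its active part, and this enters the nucleus and binds sterol regulatory elements, usually together with the factors NF-Y and Sp1. The genes of the mevalonate and late sterol steps are therefore known for rising and falling together in liver.

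The stretch just upstream of these genes is shown for 5 members that the results turn on, to let the elements be read beside the expression values: the 2 mevalonate genes with the largest DEHP differences in wild-type livers, 2 late sterol genes, and Mylip, the member that moved the other way. The windows run from 250 bases before to 50 bases after the annotated start, on the strand of the gene, and come from RefSeq on the mouse assembly GRCm38.p6. Hmgcs1 lies at chr13:119690101-119690400 on the plus strand, Mvd at chr8:122443373-122443672 on the minus strand, Cyp51 at chr5:4104648-4104947 on the minus strand, Msmo1 at chr8:64733529-64733828 on the minus strand and Mylip at chr13:45389492-45389791 on the plus strand. Capitals mark, on either strand, the sterol regulatory element core TCACNCC, the E-box CACGTG and the NF-Y motif CCAAT.
Hmgcs1: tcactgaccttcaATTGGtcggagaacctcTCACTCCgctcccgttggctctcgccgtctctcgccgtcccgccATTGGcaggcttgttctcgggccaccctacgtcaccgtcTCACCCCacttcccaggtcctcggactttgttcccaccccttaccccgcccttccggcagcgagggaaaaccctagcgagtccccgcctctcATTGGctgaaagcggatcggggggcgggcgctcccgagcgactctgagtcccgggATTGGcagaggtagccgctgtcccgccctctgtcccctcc
Mvd: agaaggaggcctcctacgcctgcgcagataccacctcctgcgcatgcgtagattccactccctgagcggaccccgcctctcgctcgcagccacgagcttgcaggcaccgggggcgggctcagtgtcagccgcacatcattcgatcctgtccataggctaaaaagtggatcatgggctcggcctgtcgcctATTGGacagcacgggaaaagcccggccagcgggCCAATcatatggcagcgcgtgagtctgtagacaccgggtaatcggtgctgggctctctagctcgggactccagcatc
Cyp51: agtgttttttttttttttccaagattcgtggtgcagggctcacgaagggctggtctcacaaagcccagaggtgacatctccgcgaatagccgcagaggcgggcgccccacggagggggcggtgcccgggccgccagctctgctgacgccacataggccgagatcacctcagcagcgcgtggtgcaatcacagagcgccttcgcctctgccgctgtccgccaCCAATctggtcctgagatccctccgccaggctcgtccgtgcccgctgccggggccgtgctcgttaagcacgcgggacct
Msmo1: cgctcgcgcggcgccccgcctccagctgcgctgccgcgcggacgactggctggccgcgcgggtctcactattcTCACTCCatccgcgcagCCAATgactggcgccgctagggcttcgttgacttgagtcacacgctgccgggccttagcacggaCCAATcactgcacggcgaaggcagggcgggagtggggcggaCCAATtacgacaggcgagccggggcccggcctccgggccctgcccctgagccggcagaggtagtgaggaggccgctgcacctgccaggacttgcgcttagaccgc
Mylip: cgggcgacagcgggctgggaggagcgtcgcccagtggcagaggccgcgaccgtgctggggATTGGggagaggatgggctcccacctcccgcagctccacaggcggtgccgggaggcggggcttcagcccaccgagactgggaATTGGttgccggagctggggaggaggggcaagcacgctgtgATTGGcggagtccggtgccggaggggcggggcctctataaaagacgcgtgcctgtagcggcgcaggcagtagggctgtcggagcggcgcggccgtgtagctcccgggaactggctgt
The Hmgcs1 window holds 2 sterol element cores, 220 and 137 bases before the start, and 4 CCAAT motifs. The Msmo1 window holds 1 core, 177 bases before the start, and 3 CCAAT motifs. Mvd, Cyp51 and Mylip hold no core in these letters, and their windows hold 2, 1 and 3 CCAAT motifs in that order. Of the 9 late sterol genes with a window, only Msmo1 held a core. Lss, whose window is not shown, had a larger wild-type difference (0.80) than Msmo1 (0.61). These are single genes, and whether a core goes with the size of the difference was not tested.

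Of the 30 measured members, 24 matched a RefSeq window by symbol. CCAAT was found in 21 of these 24 (87.5%), against 41.7% of the 15614 measured genes with a window. The Sp1 motif GGGCGG, which is not capitalised, was also found in 21 of 24 (87.5%), against 52.9% of those genes. The sterol element core was found in 5 of 24 (20.8%), against 18.2%, and the E-box in 5 of 24 (20.8%), against 9.50%. A gene counted where any of its windows held the letters on either strand, overlaps between motifs were kept, and a match describes letters only. Taking only the first listed window of each gene, the members were richer in G and C, with a median of 63% against 57.7% over the measured genes.

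Values are log2 of the deposited intensity, differences are DEHP minus corn oil or null minus wild type on that log2 scale with their standard error, and a gene is called changed where limma's adjusted p over all 19938 genes (Benjamini-Hochberg) was below 0.05. In wild-type livers DEHP raised 12 of the 30 members and lowered 1, Mylip, while 2.29% of all genes were called up and 1.57% were called down. The 12 were 5 of the 8 mevalonate genes, Hmgcs1, Pmvk, Mvd, Idi1 and Fdps, and 7 of the 12 late sterol genes, Fdft1, Lss, Cyp51, Msmo1, Hsd17b7, Sc5d and Dhcr7. None of the 5 regulators and none of the 5 transport genes was called up. The median log2 difference was 0.61 over the mevalonate genes, 0.53 over the late sterol genes, 0.04 over the regulators and 0.14 over the transport genes, beside -0.01 over all genes. In 24 of the 30 members the difference was above 0, as it was in 45.0% of all genes. All 4 DEHP animals lay above all 4 corn oil animals in 19 members and below them in 1, against 6.10% and 5.77% of all genes.

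In PPARα-null livers DEHP raised 2 of the 30 members, Hmgcs1 and Idi1, and lowered none, while 0.160% of all genes were called up and 0.311% were called down. The median log2 difference was 0.32 over the mevalonate genes, 0.46 over the late sterol genes, 0.16 over the regulators and 0.07 over the transport genes, beside 0.01 over all genes. Here too 24 of the 30 members had a difference above 0, against 54.6% of all genes. All 3 DEHP animals lay above all 4 corn oil animals in 17 members, against 5.57% of all genes, and below them in 0 members, against 4.42% of all genes. An adjusted p below 0.1 was reached by 10 members, and the share of all genes at that level was not computed here. Across the other settings tried, 0 to 11 members were called. The calls over all genes moved as well, from 1 with the 2 compared groups alone to 427 of 9969 genes above the median level. As fitted, 94 of 19938 genes were called. The number of members called was 0 without null DEHP animal KO-122 or KO-123. It was also 0 without null corn oil animal KO-116, KO-117 or KO-118, 1 without KO-121 and 5 without KO-115.

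**Figure D1:**
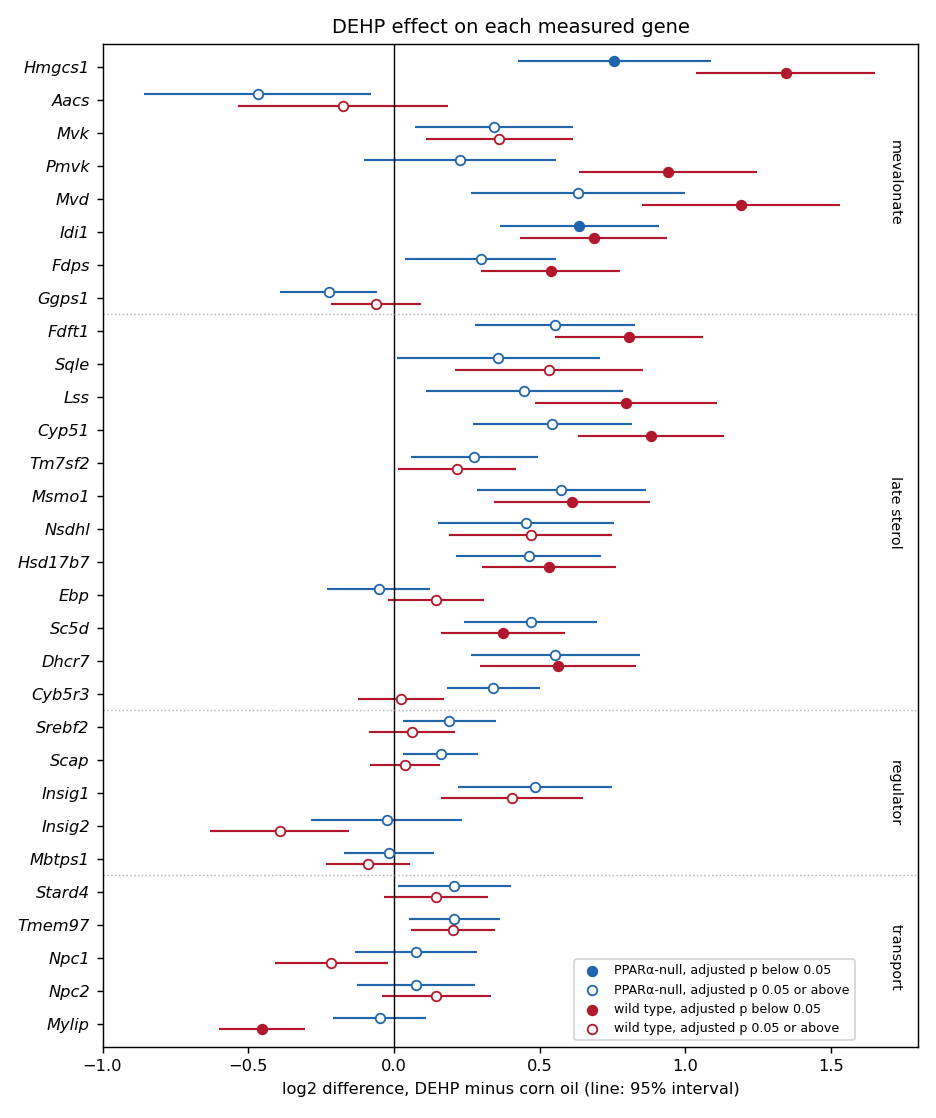
Log2 difference between DEHP and corn oil animals for each of the 30 measured members, with its 95% interval, in PPARα-null (blue) and wild-type (red) livers; filled points passed an adjusted p of 0.05. Filled points are 2 in null and 13 in wild-type livers, and 17 of the 20 blue points of the mevalonate and late sterol genes lie to the right of 0.

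The mevalonate steps begin with Hmgcs1, the cytosolic synthase that makes HMG-CoA. Hmgcs1 read 11.40, 11.38 and 11.38 in null DEHP animals, against 11.08, 10.39, 10.55 and 10.49 in null corn oil animals. In wild-type livers the values were 10.95, 11.16, 11.53 and 11.50 with DEHP, against 10.10, 9.72, 9.93 and 10.02 with corn oil. Neither pair of groups overlapped, although null corn oil animal KO-115 stood above the other 3 of its group. Hmgcs1 rose in both genotypes, by 0.76 ± 0.16 in null livers (adjusted p = 0.0455) and by 1.34 ± 0.14, or 2.54-fold, in wild-type livers (adjusted p = 7.9e-05). The null call was lost in 6 of the 7 fits that left out 1 animal of these groups, with an adjusted p of up to 0.181 without animal KO-122.

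Mvk and Pmvk add the phosphates to mevalonate, and Mvd removes the carboxyl group that follows. Pmvk read 9.31, 8.72 and 9.13 in null DEHP animals, against 9.02, 8.62, 8.63 and 9.03 in null corn oil animals, and the groups overlapped. In wild-type livers Pmvk read 9.60, 9.64, 9.96 and 9.86 with DEHP, against 9.08, 8.65, 8.61 and 8.94 with corn oil. All 4 wild-type DEHP animals stood above every other animal of the series, and Pmvk rose by 0.94 ± 0.14 (adjusted p = 0.0014), while the null difference was 0.23 ± 0.16 (adjusted p = 0.609). Mvd read 8.99, 8.82 and 8.74 in null DEHP animals, against 8.59, 7.84, 8.37 and 8.07 in null corn oil animals. The wild-type values of Mvd were 8.98, 9.27, 9.28 and 9.33 with DEHP, against 8.29, 7.67, 7.82 and 8.30 with corn oil. The groups of Mvd did not overlap in either genotype. Mvd rose by 1.19 ± 0.16 in wild-type livers (adjusted p = 0.000517), and its null difference of 0.63 ± 0.17 did not pass (adjusted p = 0.109). Mvk was not called, with differences of 0.34 in null and 0.36 in wild-type livers.

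Idi1 interconverts the 2 isoprenoid units that the pathway joins. Idi1 read 11.87, 12.14 and 12.06 in null DEHP animals, against 11.67, 11.26, 11.22 and 11.41 in null corn oil animals. In wild-type livers it read 11.47, 11.72, 11.88 and 11.90 with DEHP, against 11.26, 10.82, 11.04 and 11.12 with corn oil. The DEHP animals were above the corn oil animals without overlap in both genotypes, and Idi1 rose by 0.64 ± 0.13 in null livers (adjusted p = 0.0405) and by 0.68 ± 0.12 in wild-type livers (adjusted p = 0.00377). The null call of Idi1 was lost in 5 of 7 fits that left out 1 animal, with an adjusted p of up to 0.227 without animal KO-122. A second Idi1 probe set gave 0.67 in null and 0.67 in wild-type livers.

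Fdps, which makes farnesyl diphosphate, read 11.49, 11.27 and 11.24 in null DEHP animals, against 11.20, 11.07, 10.89 and 10.99 in null corn oil animals. Its wild-type values were 11.24, 11.46, 11.58 and 11.46 with DEHP, against 11.19, 10.59, 10.84 and 10.97 with corn oil. The groups stood apart in both genotypes, by narrow gaps, and Fdps rose in wild-type livers by 0.54 ± 0.11 (adjusted p = 0.013), with 0.30 ± 0.12 in null livers (adjusted p = 0.317). The other 2 mevalonate genes had values below 0 in both genotypes and were not called. Aacs, an acetoacetyl-CoA synthetase that feeds the pathway from ketone bodies, had -0.47 in null and -0.17 in wild-type livers. Ggps1, which makes geranylgeranyl diphosphate for protein prenylation, had -0.22 in null and -0.06 in wild-type livers. The Ggps1 probe set carried the same value, an intensity of 97.1, in 5 of the 15 arrays.

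**Figure D2:**
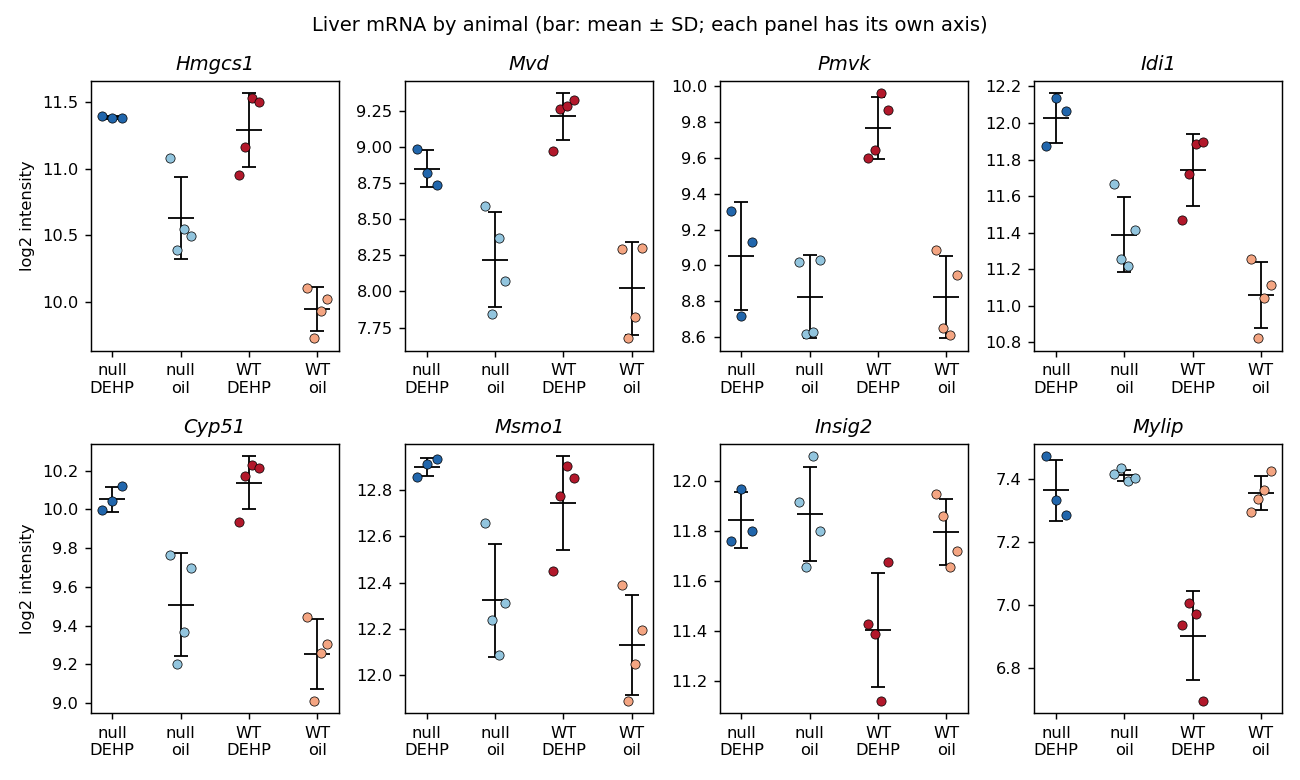
Log2 intensity of 8 members in every animal, with the mean and SD of each group; the vertical scale differs between panels. Hmgcs1 and Mvd are higher with DEHP in both genotypes, Pmvk stands apart in wild-type livers, and Mylip is lower in the 4 wild-type DEHP animals (6.69 to 7.01) than in every other animal.

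Among the late sterol enzymes, Fdft1 joins 2 farnesyl diphosphates into squalene, Sqle oxidises squalene and Lss closes the ring. Fdft1 read 11.19, 11.22 and 11.25 in null DEHP animals, against 10.99, 10.51, 10.44 and 10.73 in null corn oil animals. In wild-type livers Fdft1 read 11.00, 11.18, 11.34 and 11.33 with DEHP, against 10.63, 10.20, 10.27 and 10.52 with corn oil. No groups overlapped, and Fdft1 rose by 0.81 ± 0.12 in wild-type livers (adjusted p = 0.00111), with 0.55 ± 0.13 in null livers (adjusted p = 0.0687). A second Fdft1 probe set gave 0.70 in null and 0.88 in wild-type livers. Lss read 9.47, 9.17 and 9.48 in null DEHP animals, against 9.27, 8.79, 8.59 and 9.06 in null corn oil animals, where animal KO-115 overlapped the DEHP values. The wild-type values of Lss were 9.10, 9.42, 9.68 and 9.55 with DEHP, against 8.69, 8.44, 8.56 and 8.88 with corn oil. Lss rose by 0.80 ± 0.15 in wild-type livers (adjusted p = 0.0057) and differed by 0.45 ± 0.16 in null livers (adjusted p = 0.231). Sqle was not called, with 0.36 in null (adjusted p = 0.389) and 0.53 in wild-type livers (adjusted p = 0.0649).

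Cyp51, the lanosterol demethylase, and Msmo1, Nsdhl and Hsd17b7, which act together to take off the methyl groups at carbon 4, form the middle of the sterol steps. Cyp51 read 9.99, 10.04 and 10.12 in null DEHP animals, against 9.76, 9.20, 9.37 and 9.70 in null corn oil animals. In wild-type livers Cyp51 read 9.93, 10.17, 10.23 and 10.21 with DEHP, against 9.45, 9.01, 9.26 and 9.30 with corn oil. No groups overlapped, and Cyp51 rose in wild-type livers by 0.88 ± 0.12 (adjusted p = 0.000494), with 0.54 ± 0.13 in null livers (adjusted p = 0.0688). Msmo1 read 12.85, 12.91 and 12.93 in null DEHP animals, against 12.66, 12.24, 12.09 and 12.31 in null corn oil animals. Wild-type Msmo1 readings were 12.45, 12.77, 12.90 and 12.85 with DEHP, against 12.39, 11.89, 12.05 and 12.19 with corn oil. The groups were apart in both genotypes, and Msmo1 rose by 0.61 ± 0.13 in wild-type livers (adjusted p = 0.0119), with 0.58 ± 0.14 in null livers (adjusted p = 0.0719).

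Hsd17b7 read 10.23, 10.24 and 10.41 in null DEHP animals, against 10.07, 9.67, 9.74 and 9.85 in null corn oil animals. Its wild-type readings were 10.04, 10.35, 10.52 and 10.36 with DEHP, against 9.91, 9.57, 9.77 and 9.89 with corn oil. The groups did not overlap, and Hsd17b7 rose by 0.53 ± 0.11 in wild-type livers (adjusted p = 0.011), with 0.46 ± 0.12 in null livers (adjusted p = 0.0858). Nsdhl was not called in either genotype, at 0.45 in null (adjusted p = 0.169) and 0.47 in wild-type livers (adjusted p = 0.0602).

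Sc5d and Dhcr7 act at the end of the pathway, where Dhcr7 reduces 7-dehydrocholesterol to cholesterol. Sc5d read 11.91, 11.82 and 12.00 in null DEHP animals, against 11.57, 11.50, 11.09 and 11.61 in null corn oil animals. In wild-type livers Sc5d read 11.82, 11.83, 12.01 and 12.04 with DEHP, against 11.68, 11.50, 11.53 and 11.49 with corn oil. The groups were apart, and the wild-type rise of 0.37 ± 0.10 passed narrowly (adjusted p = 0.0487), while 0.47 ± 0.11 in null livers did not (adjusted p = 0.065). Dhcr7 read 10.56, 10.43 and 10.45 in null DEHP animals, against 10.23, 9.90, 9.74 and 9.85 in null corn oil animals. Wild-type Dhcr7 readings were 10.16, 10.28, 10.73 and 10.55 with DEHP, against 10.14, 9.74, 9.78 and 9.81 with corn oil, with no overlap. Dhcr7 rose by 0.56 ± 0.13 in wild-type livers (adjusted p = 0.0198) and differed by 0.55 ± 0.14 in null livers (adjusted p = 0.0812). The wild-type call of Sc5d was lost in all 8 fits that left out 1 animal, with an adjusted p of up to 0.132 without DEHP animal WT-59. The wild-type call of Dhcr7 was lost without DEHP animal WT-58 or WT-59 or corn oil animal WT-53, WT-54 or WT-55, with an adjusted p of up to 0.0694.

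The remaining late sterol genes were not called for DEHP in either genotype. Ebp, a sterol isomerase, had -0.05 in null and 0.15 in wild-type livers. Tm7sf2, a sterol reductase, had 0.28 in null and 0.22 in wild-type livers. Cyb5r3, the reductase that passes electrons to several of these oxidising enzymes, had 0.34 in null livers (adjusted p = 0.0601) and 0.02 in wild-type livers (adjusted p = 0.915).

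None of the 5 measured regulators passed the test in either genotype as fitted, though both Insig genes did under some alternatives. Srebf2, which encodes SREBP2 itself, differed by 0.19 ± 0.08 in null (adjusted p = 0.297) and 0.06 ± 0.07 in wild-type livers (adjusted p = 0.748). Srebf2 spanned 9.10 to 9.14 in null DEHP animals and 8.75 to 9.06 in null corn oil animals, and 8.83 to 8.99 in wild-type DEHP animals and 8.78 to 8.93 in wild-type corn oil animals. Scap, the escort, had 0.16 in null and 0.04 in wild-type livers. Mbtps1, the protease that makes the first cut in SREBP2, had -0.02 in null and -0.09 in wild-type livers.

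The Insig genes encode the retention proteins, and in wild-type livers they had the lowest adjusted p of the regulators. Insig1, itself an SREBP target, read 12.37, 12.08 and 12.12 in null DEHP animals, against 12.04, 11.65, 11.56 and 11.58 in null corn oil animals. In wild-type livers Insig1 read 12.08, 12.26, 12.14 and 12.04 with DEHP, against 11.87, 11.47, 11.66 and 11.91 with corn oil. The DEHP animals stood above the corn oil animals in both genotypes, by differences of 0.48 ± 0.12 in null (adjusted p = 0.0902) and 0.41 ± 0.12 in wild-type livers (adjusted p = 0.0648). Insig2 read 11.76, 11.97 and 11.80 in null DEHP animals, against 11.91, 11.66, 12.10 and 11.80 in null corn oil animals. Wild-type Insig2 readings were 11.43, 11.39, 11.12 and 11.68 with DEHP, against 11.95, 11.86, 11.66 and 11.72 with corn oil. The wild-type groups of Insig2 overlapped through DEHP animal WT-59, and the differences were -0.02 ± 0.12 in null (adjusted p = 0.963) and -0.39 ± 0.11 in wild-type livers (adjusted p = 0.0677), the second with the opposite sign to Insig1. In wild-type livers Insig1 passed under 4 of 9 other settings (median centring, genes above the median level, trend and robust options, array weights), with an adjusted p of 0.03 to 0.0487. Insig2 also passed under 4 of 9 (quantile normalization, genes above the median level, trend and robust options, array weights), with an adjusted p of 0.0313 to 0.0496. In null livers Insig1 passed among genes above the median level (adjusted p = 0.0384).

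Among the transport and turnover genes, Mylip encodes an E3 ubiquitin ligase that sends lipoprotein receptors for degradation and is a known target of the sterol-sensing liver X receptors. Mylip read 7.47, 7.33 and 7.29 in null DEHP animals, against 7.42, 7.44, 7.40 and 7.40 in null corn oil animals. In wild-type livers it read 6.94, 7.01, 6.97 and 6.69 with DEHP, against 7.30, 7.34, 7.37 and 7.43 with corn oil. The 4 wild-type DEHP animals were below all the others, while the null groups overlapped. Mylip fell by 0.45 on the log2 scale in wild-type livers (SE 0.07, adjusted p = 0.0014), a call kept in each of the 8 fits that left out 1 animal, and its null difference was -0.05 ± 0.07 (adjusted p = 0.861). The other 4 measured transport genes were not called for DEHP. Stard4, a cytosolic sterol carrier, had 0.21 in null and 0.15 in wild-type livers. Npc1 and Npc2, which move cholesterol out of lysosomes, had 0.07 and 0.07 in null, and -0.22 and 0.14 in wild-type livers. Tmem97, a sterol-regulated protein that binds Npc1, had 0.21 in null and 0.20 in wild-type livers. A second Tmem97 probe set gave -0.03 in null and 0.28 in wild-type livers, and the null value of the gene was 0.09 with the mean of both probe sets and 0.12 with quantile normalization.

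The difference between the 2 DEHP effects was tested directly, as the effect in null livers minus the effect in wild-type livers. By limma none of the 30 members passed, while 0.336% of all genes were called up and 0.562% were called down. Before adjustment 7 members had a limma p below 0.05. The share of all genes at that unadjusted level was not computed here, so the 7 have no background to be judged by. Over all 20 mevalonate and late sterol genes, the median effect was 0.45 in null and 0.54 in wild-type livers, and 17 of the 20 had a lower value in null livers. The 17 include Aacs and Ggps1, whose differences were negative in both genotypes. Leaving out 1 animal moved the null median between 0.35 without KO-117 and 0.52 without KO-115. The wild-type median moved between 0.45 without WT-53 and 0.63 without WT-52, so these ranges overlap. The 12 members that rose in wild-type livers were picked by their wild-type effect, which favours a larger wild-type value, so their comparison is a description only. Their null effects ran from 0.23 for Pmvk to 0.76 for Hmgcs1, and the 95% interval of the difference included 0 in 9 of them.

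The 3 of these 12 whose interval left out 0 were mevalonate genes, chosen here after their values were seen and subject to the same selection. The difference of effects was -0.71 for Pmvk (95% interval -1.16 to -0.26, adjusted p = 0.123). It was -0.59 for Hmgcs1 (95% interval -1.04 to -0.13, adjusted p = 0.221) and -0.56 for Mvd (95% interval -1.06 to -0.06, adjusted p = 0.307). In contrast, the difference was -0.05 for Idi1 (95% interval -0.42 to 0.32), -0.04 for Msmo1 (95% interval -0.43 to 0.36) and -0.01 for Dhcr7 (95% interval -0.40 to 0.39). For these the interval allows a null effect both smaller and larger than the wild-type one. The remaining members with an unadjusted p below 0.05 had higher values in null livers, at 0.32 for Cyb5r3 (adjusted p = 0.159), 0.37 for Insig2 (adjusted p = 0.345) and 0.29 for Npc1 (adjusted p = 0.361), and Mylip. The lowest adjusted p belonged to Mylip, at 0.40 (95% interval 0.19 to 0.62, adjusted p = 0.0698, and 0.0267 to 0.136 over 23 alternative settings, of which 3 called it).

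By step, all 8 mevalonate genes had a lower effect in null livers, with a median difference of -0.27 and a range of -0.71 to -0.02. For Aacs and Ggps1, negative in both genotypes, this means a more negative value in null livers and not a smaller rise. Of the 12 late sterol genes 9 had a lower effect in null livers, with a median of -0.05. These tallies by step were not repeated with single animals left out. All 5 regulators had a higher value in null livers, with a median of 0.12. Over all genes, 8616 of 19938 were lower, with a median of 0.03. Both effects rest on separate animals, with 3 and 4 in the null groups and 4 and 4 in the wild-type groups.

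In corn oil animals the null minus wild-type difference was above 0 in 16 of the 20 mevalonate and late sterol genes, with a median of 0.15, against 9331 of 19938 genes and a median of -0.01 over all genes. The figures turn on single animals: without null animal KO-115 the difference was above 0 in 12 of the 20, with a median of 0.07, and without wild-type animal WT-53 in 13, with a median of 0.05. Without WT-52 the median was 0.22, with 16 of the 20 above 0. An unadjusted p below 0.05 was reached by 7 of the 30 members, and the share of all genes at that level was not computed here. The test called 2 members, Hmgcs1 and Tmem97, both higher in null livers, while 0.642% of all genes were called up and 0.547% were called down. Hmgcs1 was higher by 0.68 ± 0.14 in null corn oil animals (adjusted p = 0.0276), and its values did not overlap those of wild-type corn oil animals. That call was lost without wild-type animal WT-53, WT-54 or WT-55 or null animal KO-115 or KO-117. Tmem97 read 10.46, 10.47, 10.26 and 10.59 in null corn oil animals, against 10.07, 10.03, 10.07 and 10.21 in wild-type corn oil animals. The groups did not overlap, and the difference was 0.35 ± 0.07 (adjusted p = 0.0162). It was lost without wild-type animal WT-52, WT-53 or WT-54 or null animal KO-115. A second Tmem97 probe set gave 0.33. Sqle and Idi1 had differences of 0.44 (adjusted p = 0.212) and 0.33 (adjusted p = 0.238) in these controls.

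In DEHP animals the null minus wild-type difference was above 0 in 9 of the 20 enzymes, with a median of -0.02, against 11328 of 19938 genes and a median of 0.02 over all genes. Leaving out 1 animal moved the tally between 6 of 20 without WT-56 (median -0.07) and 13 of 20 without WT-58 (median 0.05). The sign of the median also turned without KO-122 (0.02) or WT-59 (0.01). Hmgcs1, 0.68 higher in null controls, differed by 0.10 ± 0.16 under DEHP (95% interval -0.24 to 0.43, adjusted p = 0.795). Of the 30 members 4 were called higher in null livers and 2 lower, against 5.09% and 5.61% of all genes. With each array centred on its median the split was 2 higher and 2 lower, and without wild-type animal WT-56 or null animal KO-122 the count of 6 was 3.

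The 4 higher in null DEHP livers were Mylip, Tmem97, Insig2 and Cyb5r3. Mylip was higher by 0.46 ± 0.07 (adjusted p = 0.000978), and the wild-type DEHP animals were the ones apart from the rest. Tmem97 read 10.63, 10.69 and 10.63 in null DEHP animals, against 10.23, 10.31, 10.34 and 10.30 in wild-type DEHP animals. By its kept probe set Tmem97 was higher by 0.35 ± 0.07 (adjusted p = 0.00538), much the same difference as in corn oil controls. The second Tmem97 probe set averaged 9.24 in null and 9.21 in wild-type DEHP animals, so it did not show this difference under DEHP. The mean of the 2 probe sets did not pass. Insig2 was higher by 0.44 ± 0.12 (adjusted p = 0.0293), a call lost without wild-type animal WT-56, WT-57 or WT-58 or null animal KO-122 or KO-123. Cyb5r3 read 11.19, 11.03 and 11.20 in null DEHP animals, against 10.72, 10.83, 10.93 and 10.90 in wild-type DEHP animals. It was higher by 0.30 ± 0.08 (adjusted p = 0.0178), a call lost without wild-type animal WT-56 or null animal KO-121 or KO-123.

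The 2 lower in null DEHP livers were the enzymes Pmvk and Ebp. Pmvk was lower, with a difference of -0.71 ± 0.16 (adjusted p = 0.00737, and 0.0603 without null animal KO-122, which read lowest). In corn oil animals the Pmvk difference between genotypes was 0.00 ± 0.14. Ebp read 11.15, 10.90 and 11.23 in null DEHP animals, against 11.46, 11.32, 11.32 and 11.42 in wild-type DEHP animals. Its difference was -0.28 ± 0.08 (adjusted p = 0.038), lost without wild-type animal WT-56, WT-57 or WT-59 or null animal KO-121 or KO-122, with an adjusted p of up to 0.227.

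**Figure D3:**
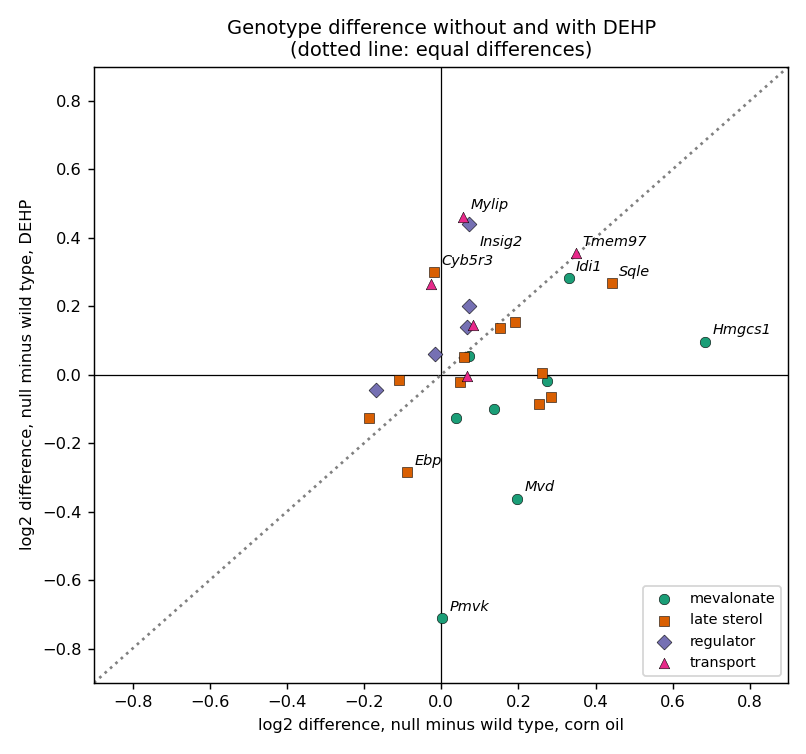
Null minus wild-type log2 difference of the 30 measured members in corn oil animals (horizontal) and in DEHP animals (vertical), by step. Hmgcs1 lies at 0.68 and 0.10, Pmvk at 0.00 and -0.71, and Mylip at 0.06 and 0.46. Tmem97, by its kept probe set alone, lies near the line of equal differences at 0.35 and 0.35.

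The same animals tended to stand high or low across the enzymes, in the controls as well. For each animal the 20 mevalonate and late sterol genes were set against the mean of the corn oil animals of the same genotype, and their median was taken. The medians were 0.46, 0.38 and 0.47 in null DEHP animals, against 0.25, -0.13, -0.16 and 0.05 in null corn oil animals. In wild-type livers they were 0.31, 0.56, 0.73 and 0.58 with DEHP, against 0.19, -0.21, -0.04 and 0.06 with corn oil. Every DEHP animal thus had a higher median than every corn oil animal of its genotype. Within groups the same animals recurred at the ends: null corn oil animal KO-115 was the highest of its group in 15 of the 20 enzymes, and wild-type corn oil animal WT-52 in 16. Wild-type DEHP animal WT-58 was the highest of its group in 13 enzymes and animal WT-56 the lowest in 15. The regulator medians by animal stayed between -0.07 and 0.19. The genes were measured on the same arrays and share them, and what sets these animals apart was not tested.

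**Figure D4:**
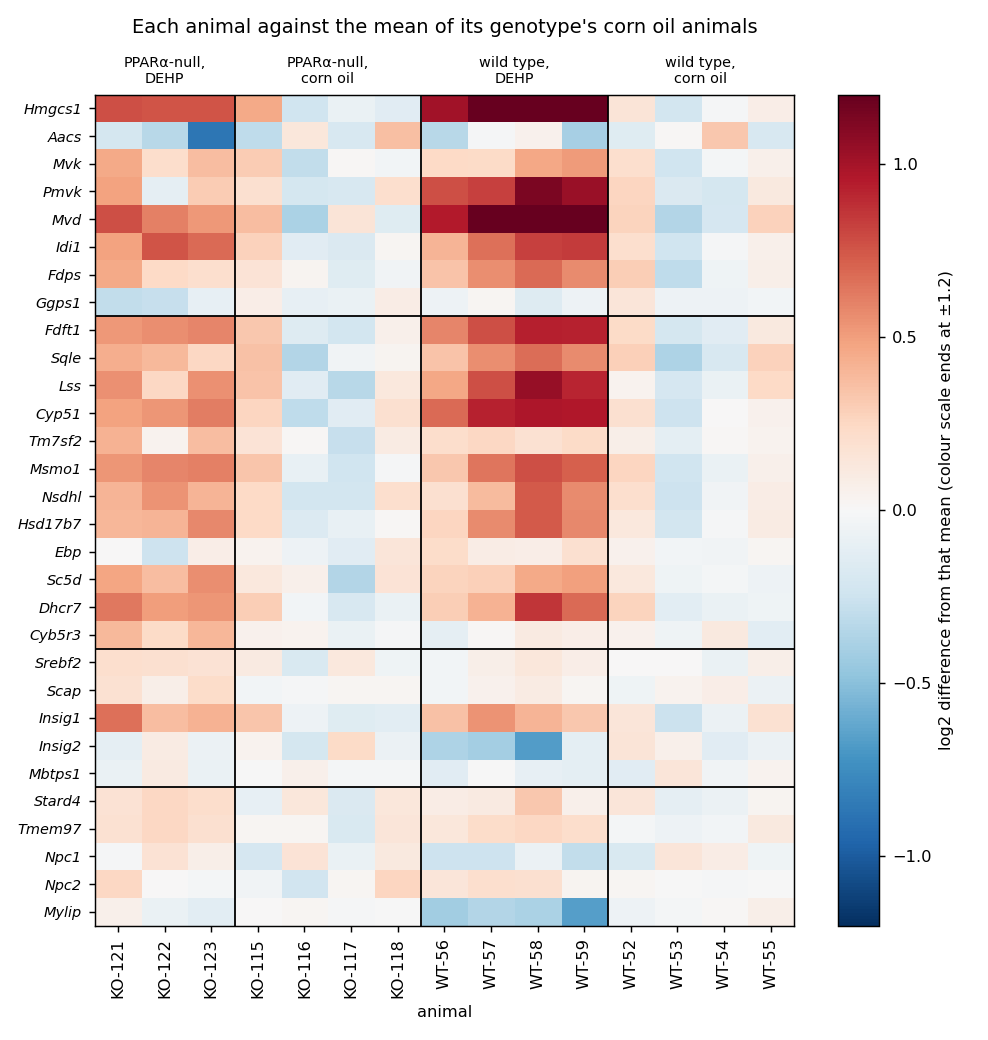
Each measured member (rows, by step) in each animal (columns), as the log2 difference from the mean of the corn oil animals of its genotype. Red prevails in the mevalonate and late sterol rows of all DEHP animals, with enzyme medians of 0.38 to 0.47 in null and 0.31 to 0.73 in wild-type livers. Aacs and Ggps1 do not show it in either genotype, nor does Ebp in null livers, and Cyb5r3 is pale in wild-type livers. Animals KO-115 and WT-52 are the reddest corn oil columns.

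Neighbouring gene lists were also set beside the members. Of the other genes of the sterol pathway 3 were measured, Lbr, Erg28 and Srebf1, and none was called for DEHP. Erg28, a scaffold protein of sterol demethylation known from yeast, had 0.40 in null (adjusted p = 0.0593) and 0.28 in wild-type livers (adjusted p = 0.0743), with no overlap of groups in either. Of 13 genes of the non-sterol branches, which make dolichol, ubiquinone and prenylated proteins from the same precursors, 0 were called for DEHP in either genotype by limma, and the medians were -0.03 in null and -0.04 in wild-type livers. Fnta, a subunit of the protein prenyltransferases, was lower in null than in wild-type DEHP animals, at -0.40 (adjusted p = 0.00271).

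Of 12 genes of sterol export and oxidation, 1 rose with DEHP in null livers and 2 in wild-type livers. Of all genes, 0.160% were called up in null and 2.29% in wild-type livers. Lipa, the lysosomal acid lipase that frees cholesterol from its esters, rose by 0.38 ± 0.07 in null (adjusted p = 0.0329) and by 0.24 ± 0.06 in wild-type livers (adjusted p = 0.0466), calls lost in 5 of 7 and 6 of 8 fits that left out 1 animal. Cyp7a1, which starts the main route from cholesterol to bile acids, had 1.55 ± 0.45 in null livers (adjusted p = 0.13) and rose by 1.68 ± 0.41 in wild-type livers (adjusted p = 0.0331), a call lost in 6 of 8 such fits. Abcg5 and Abcg8, the paired exporter of sterols into bile, were lower in null than in wild-type corn oil animals, with differences of -0.50 (adjusted p = 0.00388) and -0.58 (adjusted p = 0.0116). They were lower in null DEHP animals as well, at -0.50 (adjusted p = 0.00166) and -0.62 (adjusted p = 0.00298). Cyp27a1, a sterol hydroxylase of bile acid synthesis, was lower in null corn oil animals by the same test, at -0.33 (adjusted p = 0.016, lost without WT-54 or KO-117).

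As a check of the genotype labels, Ppara itself read 9.11 to 9.27 in null DEHP and 8.99 to 9.24 in null corn oil livers, and 9.55 to 10.23 in wild-type DEHP and 9.64 to 9.88 in wild-type corn oil livers. Ppara was lower in null livers, with differences of -0.64 under DEHP (adjusted p = 0.00422) and -0.69 in corn oil animals (adjusted p = 0.00645), and whether its probe set lies in the deleted stretch was not analysed here. Hepatocyte markers summed to an intensity of 68291 to 71669 in null DEHP and 66022 to 71294 in null corn oil livers, and to 62977 to 65856 in wild-type DEHP and 68833 to 71296 in wild-type corn oil livers. In wild-type livers DEHP lowered 1 of 6 hepatocyte, 2 of 7 sinusoidal endothelium and 2 of 6 stellate cell markers and raised 1 of 5 neutrophil markers. Of all genes, 1.57% were called down and 2.29% up there. No marker of these lists was called in null livers, where 0.311% of all genes were called down and 0.160% up. Stellate markers summed to 1945 to 2478 in null DEHP and 2082 to 2537 in null corn oil livers, and to 1416 to 1575 in wild-type DEHP and 1778 to 1931 in wild-type corn oil livers. Endothelium markers summed to 2685 to 2994 in null DEHP and 2364 to 2613 in null corn oil livers, and to 2094 to 2364 in wild-type DEHP and 2376 to 2687 in wild-type corn oil livers. Of 8 Kupffer, 4 cholangiocyte and 6 lymphocyte markers none was called for DEHP in either genotype. However, 4 of the 6 lymphocyte, 4 of the 5 neutrophil and 1 of the 4 cholangiocyte markers averaged at the array median or below. A lack of calls there says little about these cells. The cholangiocyte marker Krt19 read 7.72 in wild-type DEHP animal WT-57, against 5.47 to 5.67 in the rest of its group. Between genotypes under DEHP, 5 of 7 endothelium and 3 of 6 stellate markers were called higher in null livers. So were 1 of 6 hepatocyte and 1 of 5 neutrophil markers, against 5.09% of all genes. In the difference of effects 2 of 7 endothelium markers were called up, against 0.336% of all genes. The part of these shifts in the members' differences was not tested.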

How the data were processed

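Liver RNA of 15 male mice was labelled with biotin from 300 ng of total RNA by the Affymetrix GeneChip WT cDNA kit, per the labels' protocols. The authors deposited 1 value table of 35494 probe sets in linear intensity, with array medians of 44.4 to 47.5 that lie close together, as in values already scaled between arrays. The authors' summarisation and normalization were not given in the sources used here. Read depth does not apply, and the number of arrays limits the precision. Probe sets were named by the platform annotation: 21789 carried 1 symbol, 1621 several and 12084 none. Per gene the probe set with the highest mean log2 was kept, which gave 19938 genes, 999 of them from several probe sets. All 30 measured members averaged above the array median.

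The 15 log2 values of each gene were fitted with limma 3.58.1 in R 4.3.3 (1 mean per group, no covariate, 11 residual and 4.68 prior degrees of freedom), with Benjamini-Hochberg adjustment over all genes per contrast and a threshold of 0.05. Tables and plots used Python 3.11.15, pandas 2.3.3, numpy 2.4.6 and matplotlib 3.10.9. The script was tested on simulated data. No pair of arrays was identical, and arrays of a group correlated at 0.988 to 0.992. The titles number the animals, so replicates are separate animals. The labels give no batch or scan date.

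The alternatives were quantile normalization, median centring, log2(value + 16), genes above the median level, the mean of a gene's probe sets, all probe sets, a fit of the 2 compared groups, limma's trend and robust options, array weights, and leaving out each animal. The named genes are the members, each animal's values being given for those called in the DEHP contrasts, and called genes of 3 further lists, at most 4 per list and contrast. Members and lists were chosen with earlier results of these data known, and no list test was run. Values of single animals are also given for some members chosen after their results were seen.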

Additional observations from a re-analysis of the deposited data

Results flagged for a closer look

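In 90 groups of 4 animals (30 members, 3 groups), 3 had 1 animal set far from the other 3 by Dixon's test at the 95% level, where chance flags about 1 in 20 groups. Mvd read 8.98 in wild-type DEHP animal WT-56, below 9.27 to 9.33 in the other 3. Stard4 read 9.13 in wild-type DEHP animal WT-58, above 8.87 to 8.91 in the other 3. Ggps1 read 6.81 in wild-type corn oil animal WT-52, above 6.60 to 6.63 in the other 3. Groups of 3 animals were not tested.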

How the results depend on the processing

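No called difference reversed its direction under any alternative. The wild-type DEHP count of 13 ran from 11 to 17 across the other settings and from 11 to 13 when 1 animal was left out. Over all genes, up or down, 770 were called as fitted and 662 to 1101 across the other settings. The null DEHP count of 2 was 0 with median centring, with all probe sets, with the 2 compared groups alone and with array weights. It was 1 with quantile normalization, 7 with log2(value + 16), 8 with trend and robust options and 11 among genes above the median level. In that order of settings, all genes called were 32, 69, 1, 56, 161, 287, 293 and 427, beside 94 as fitted. The member count ran from 0 to 5 when 1 animal was left out. The count of 0 for the difference of effects became 1 (Mylip) with log2(value + 16), above the median level and with trend and robust options. All genes called were 418, 570 and 424 in that order, beside 179 as fitted. For null against wild type, the corn oil count of 2 was 1 with all probe sets and 0 with the 2 groups alone. Genes called in all were 185 and 226 in those settings, beside 237 as fitted. Without 1 animal the member count ran from 0 to 2. The DEHP count of 6 was 3 with the 2 groups alone, and ran from 3 to 5 without 1 animal. Genes called in all were 1331 with the 2 groups alone, beside 2133 as fitted. In wild-type livers Sqle and Nsdhl passed among genes above the median level and with array weights. The regulator median in null livers was 0.111 with quantile normalization. Without 1 animal the transport median ran from 0.059 to 0.159 in null and from 0.0857 to 0.173 in wild-type livers. Testing only genes above the median level means fewer genes, and for the other settings the cause was not tested. No setting moved the median of all genes by more than 0.0526. No paired analysis was possible because the animal numbers are not shared between groups.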
